A study of Saccharomyces cerevisiae with 14 samples.

Results

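The 40 kb around the centromere of each chromosome, 20 kb on either side, were followed in the budding yeast Saccharomyces cerevisiae after genome rearrangement by TAQing, in which the restriction enzyme TaqI is expressed in living cells and activated briefly by heat to cut the chromosomes. The windows were defined by position alone. They numbered 16, out of 287 windows of 40 kb into which the chromosomes were divided outward from the centromeres, and held 3181 of the 59133 nuclear probes on the array, with 178 to 212 probes each.

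Copy number was measured by array comparative genomic hybridization (aCGH), in which Cy5-labeled DNA of a strain and Cy3-labeled DNA of a reference compete for the same probes. The control was WT14, a diploid made by fusing cells of an S288C-derived strain (YPH499) with cells of an SK1-derived strain (S799), and its DNA was the Cy3 reference on all 14 arrays. On 1 array WT14 was also the Cy5 sample, and the other 13 arrays each carried 1 TAQed strain. Strains 1, 73, 76, 81 and 83 were on the same slide as WT14, and a second slide held strains 119, 117, 113, 107, 106, 101, 97 and 84. TAQed strains were WT14 cells given the TaqI gene, in which expression was induced with Cu2+ and TaqI was activated for 30 min at 42 °C. The labels repeat this treatment for WT14, and the study calls WT14 a control that had no TaqI activation in its results but lists it among the activated strains in its methods, so whether WT14 was treated was not settled here. Each TAQed strain was a single isolate picked for altered cell morphology, so the strains are not a random sample of treated cells, and none had a replicate array.

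The centromere of budding yeast is a short defined DNA element on which the kinetochore, the protein complex that attaches a chromosome to spindle microtubules, is built. A chromosome piece without a centromere is lost as cells divide, and a chromosome with a second active centromere can be pulled to both poles and broken. Genes are numbered outward from the centromere on each arm, so the first-numbered genes name its neighbours.

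Values are log2 ratios of strain over WT14, each array centered on its median, and a window's value is the median over its probes. For a diploid, loss of 1 of 2 copies gives -1 and gain of 1 copy gives 0.58. A window was called past 0.3 in either direction, without a test. On the WT14 array, where the same DNA was in both channels, the 16 windows lay between -0.02 and 0.03 (SD 0.014 over the windows) and 0 passed the threshold. The array of strain 81 was dim: 81.6% of its window probes were well above background against at least 99.7% on the other arrays, and its difference between neighbouring probes had an SD of 0.186 against 0.114 to 0.133.

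In the 13 TAQed strains, 10 of 208 centromere windows were called, in 6 strains and on 8 chromosomes. At a threshold of 0.2 the count was 20, with 6 gains and 14 losses. At 0.3, the 3 gains made up 1.44% of the windows, against a background of 3.73% over all 40 kb windows and strains, and the 7 losses made up 3.37%, against 3.35%. The share of losses was thus near the background. Strains 1, 76, 83, 84, 97, 101 and 107 had no called window. Centromeres II, III, VI, VII, XI, XIII, XV and XVI were called in no strain, although a break inside the window, described below, put part of window XIII at a lower copy number in strain 101. The 8 values farthest from 0 had sizes of 0.55 or more. The other called windows were both on the array of strain 106, -0.31 on chromosome XIV and -0.30 on chromosome IX, where the threshold fell among similar values: chromosome I read -0.298 in strains 106 and 119, uncalled. Without strain 106, 7 windows were called.

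**Figure D1:**
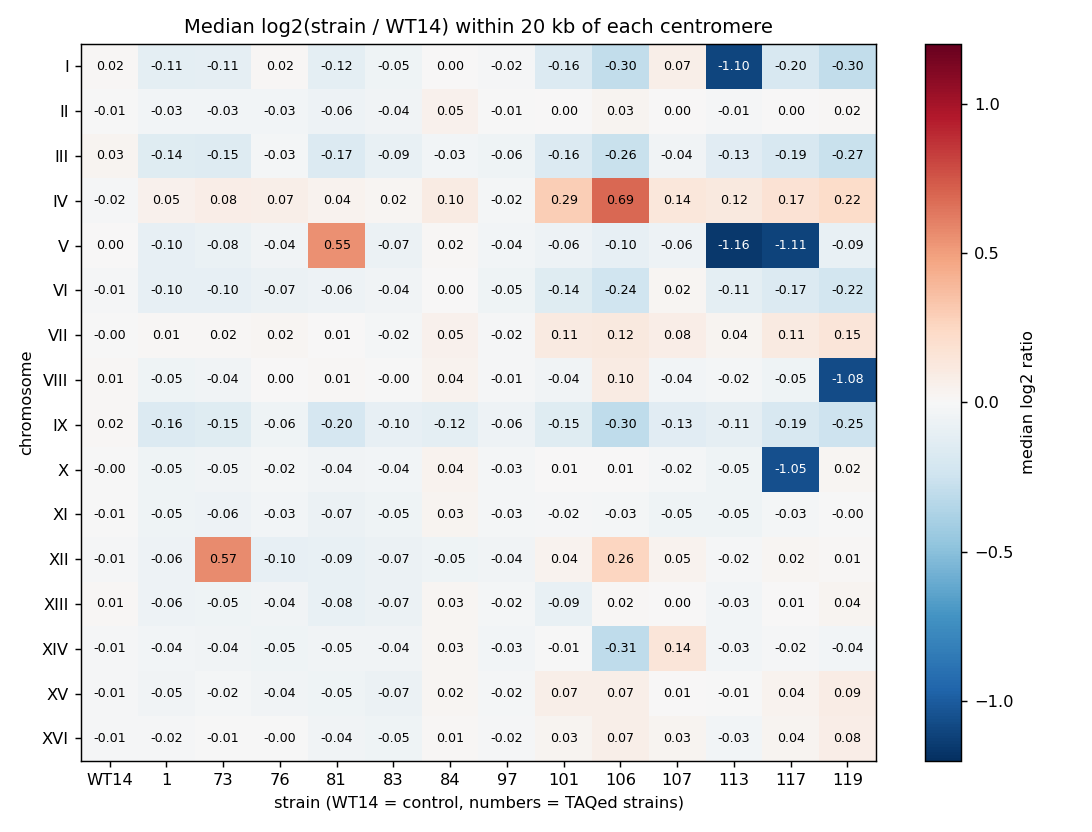
Median log2 ratio of strain over WT14 (colour and printed value) in the 40 kb centromere window of each chromosome (rows) on each of the 14 arrays (columns). The WT14 column lies between -0.02 and 0.03, and 5 losses at -1.16 to -1.05 and 3 gains at 0.55 to 0.69 stand apart from the other windows.

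Centromere V was the only centromere with losses in more than 1 strain among the called windows, and the only one called in both directions. MNN1, a mannosyltransferase of the Golgi, is first-numbered on its right arm, and IRC22 on its left. The window read -1.16 in strain 113 and -1.11 in strain 117, which correspond to 0.894 and 0.924 copies. It read 0.00 in WT14 and 0.55, or 2.93 copies, in strain 81. Over the 13 TAQed strains its lowest value was -1.16, its median -0.07 and its highest 0.55. In strains 113 and 117 both arms were lower, with -1.14 and -1.15 on the left and right arms beyond the window in strain 113 and -1.16 and -1.09 in strain 117. In strain 81 the left arm read 0.51, and the gain ended on the right arm at position 348004, 196 kb from the centromere, so that a centromere lay inside the gained stretch. The gain of strain 81 is the least certain of the 8: on this dim array it fell to 0.12, below the threshold, under background correction by normexp.

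Strain 113 also read low at centromere I. The window was at -1.10 (0.935 copies), against 0.02 in WT14 and -0.30 to 0.07 in the other 12 TAQed strains, with no overlap. The arms beyond the window read -1.06 on the left and -0.80 on the right, but neither was level throughout. At position 198417, 46.9 kb right of the centromere, the level rose from -0.98 to -0.20. The left arm was less low, at -0.37 and -0.45, at the edges of a stretch from 12152 to 28023. Toward the same right end of chromosome I, strain 119 fell from -0.32 to -0.66 at position 205775. Strain 113 in turn fell from -0.01 to -0.40 at position 528282 of chromosome VIII. Whether the lost stretch of chromosome I itself stopped at 198417 was not tested. TFC3, a subunit of the RNA polymerase III transcription factor TFIIIC, is first-numbered on the left arm, and NUP60, a protein of the nuclear pore, stands nearest on the right arm by number.

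Strain 119 read low at centromere VIII, whose neighbours are RPL14B, which encodes a protein of the large ribosomal subunit, and OSH7, an oxysterol-binding protein homologue. The window was at -1.08 (0.948 copies), against 0.01 in WT14 and -0.05 to 0.10 in the other 12 TAQed strains, and the arms were at -1.19 and -1.02. The low level reached along most of the chromosome, up to a step at position 528282 on the right arm, past which it read -0.72. Other strains also stepped near this position. The step was -0.39 at 528282 in strain 113, -0.37 at 525840 in strain 76 and 0.35 at 538876 in strain 83. Whether the lost stretch of chromosome VIII itself stopped at 528282 was not tested.

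Strain 117 lost a second centromere together with only 1 arm. The window of chromosome X was at -1.05 (0.964 copies), against 0.00 in WT14 and -0.05 to 0.04 in the other 12 TAQed strains. Its right arm read -1.12 and its left arm -0.01. The step between these levels lay between positions 416101 and 416201, 20.2 kb left of the centromere and so just outside the window, which is flanked by PRE3, a catalytic subunit of the proteasome, and AVT1, a vacuolar amino acid transporter.

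The other 2 gains differed in extent. Centromere XII, beside DNM1, a dynamin-related GTPase of mitochondrial division, was at 0.57 (2.97 copies) in strain 73, against -0.01 in WT14 and -0.10 to 0.26 in the other TAQed strains, and both arms were raised, 0.57 on the left and 0.70 on the right. Centromere IV, beside RMD1 and the neutral trehalase gene NTH1, was at 0.69 (3.22 copies) in strain 106, against -0.02 in WT14 and -0.02 to 0.29 in the others. Here the right arm was raised (0.62) and the left arm was at -0.12, and the gain began at position 295146, 155 kb left of the centromere.

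The centromeres with no called window differed in how far the strains spread. Window II, beside the histone gene HTB2 and the trehalase gene NTH2, ran from -0.06 to 0.05 over the 13 TAQed strains with a median of -0.01, against -0.01 in WT14. Window XI, beside MET14, the adenylylsulfate kinase of sulfate assimilation, and VPS1, a dynamin-like GTPase of vacuolar sorting, ran from -0.07 to 0.03. Window XVI, beside HAT1, a histone acetyltransferase, ran from -0.05 to 0.08, and window XV, beside PHO80, the cyclin of the phosphate pathway, and RRP6, an exosome nuclease, ran from -0.07 to 0.09. Window VII, beside the sterol synthesis gene ERG26, reached 0.15 in strain 119 and was above WT14 in 11 of 13 strains. Windows III and VI reached lower values, -0.27 in strain 119 and -0.24 in strain 106. None of these ranges came near the level of a lost or gained copy.

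Breaks, defined as segmentation boundaries with a step of at least 0.3 between the medians of the 20 kb on either side, were next placed relative to the centromeres. Of 301 such boundaries in the TAQed strains, 233 lay within 20 kb of a chromosome end, and 32 lay farther inside and had no WT14 boundary within 5 kb. Of these 32, 4 (12.5%) fell into centromere windows, which cover 5.31% of the probed genome. That genome includes the outermost 20 kb of the chromosomes, where by definition none of the 32 lay. The 32 also count a step on chromosome IX, at position 23711 or 23962, separately in strains 1, 83, 97, 107 and 113. WT14 had 24 boundaries and 0 in a centromere window. By windows, 4 of 208 centromere windows held a break (1.92%), against 2.49% of all 40 kb windows, where the chromosome ends enter, and 22 of 3107 other windows at least 40 kb from an end (0.708%). Unlike the count of 32, the shares of 2.49% and 0.708% include boundaries that WT14 also had. Among these are steps on chromosome XII, between positions 451863 and 488714 in WT14, which recurred in most TAQed strains. The share of 0.708% is therefore not a rate of new breaks, whereas none of the 4 centromere breaks was shared with WT14. With 4 breaks in 3 strains these shares are descriptions and were not tested.

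The pair of breaks nearest to a centromere came from strain 101. On chromosome IV the level fell from 0.82 to 0.16 between positions 445751 and 446018, 3.68 kb left of the centromere. On chromosome XIII it fell from 0.02 to -1.09 between positions 271883 and 272181, 4.08 kb right of the centromere. The steps were -0.66 and -1.11, while at the same positions the other 13 arrays had steps of -0.02 to 0.04 on chromosome IV and -0.03 to 0.02 on chromosome XIII. The 24 probes between the break and centromere IV had a median of 0.14, and the 22 between centromere XIII and its break had a median of 0.01. The gained left arm of IV therefore stopped short of its centromere, and the lost right arm of XIII began past its centromere, so that both centromeres themselves stayed near the level of 2 copies. Because each window was split by its break, the window medians (0.29 and -0.09) describe neither side: the left and right 20 kb read 0.78 and 0.16 on chromosome IV, and 0.03 and -0.998 on chromosome XIII. YPT7, a Rab GTPase of vacuole fusion, and CDC5, the polo kinase of mitotic exit, are first-numbered on the left and right arms of chromosome XIII. Without an annotation of build sacCer2, to which all positions refer, neither was placed on a side of the break.

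Chromosome XIV held a break in 2 strains, on opposite sides of its centromere, whose neighbours are DOM34, a factor that frees stalled ribosomes, and CIT1, mitochondrial citrate synthase. In strain 107 the level rose from -1.02 to 0.17 between positions 614307 and 614709, 14.1 kb left of the centromere, a step of 1.19 against -0.04 to 0.03 on the other 13 arrays. The lost left arm read -1.04, and the 78 probes between the break and the centromere read 0.17. In strain 106 the level rose from -0.31 to 0.37 between positions 647241 and 647498, 18.7 kb right of the centromere, a step of 0.69 against -0.02 to 0.07. The 96 probes between centromere XIV and this break read -0.32, a level that lies between 1 and 2 copies of a diploid, and the left arm beyond the window read -0.19. In this strain 67 of the 287 windows passed the threshold, the most of any strain, and the centromere windows that were not called had an SD of 0.164 against 0.016 to 0.157 in the other TAQed strains. Its small losses were not at the level of whole copies.

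**Figure D2:**
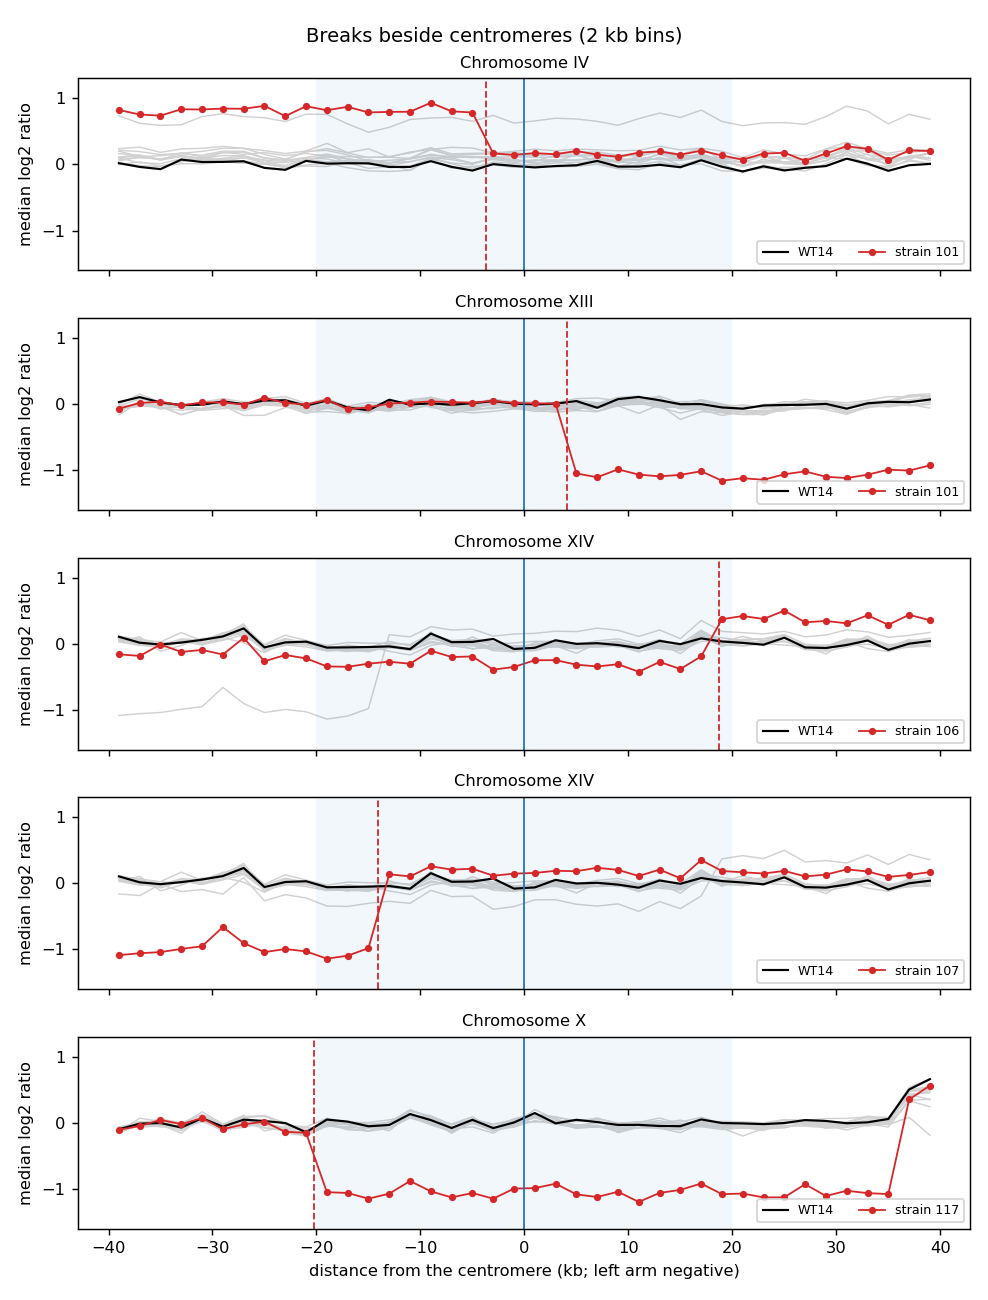
Median log2 ratio in 2 kb bins (y axis) by distance from the centromere in kb (x axis) for the 4 breaks inside centromere windows and the break just outside on chromosome X. The named strain is red, WT14 black and the other strains grey. The shaded band is the 40 kb window, the solid line the centromere and the dashed line the break, where the levels step by 0.66 to 1.19.

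The left and right 20 kb of a window differ where a break lies near the centromere, as in strain 101, but this difference misses a break near the window's edge, and read -0.006 and 0.07 in the windows of chromosome XIV in strains 106 and 107. In the other 220 windows of the 14 arrays it had a median size of 0.016 and was at most 0.064, on chromosome I of strain 113. The next break beyond 30 kb was 41.3 kb from a centromere, on chromosome VI in strain 76.

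The centromere windows were next set beside their own arms. Of 416 arms in the TAQed strains, 29 had a median past 0.3 beyond the window, 14 of them with a called centromere and 15 without. Of these 15, 7 lay between 0.3 and 0.4 in size, and the other 8, past 0.4, were spread over 5 strains with sizes of 0.43 to 1.08. In strain 76 the left arms of chromosomes VI (0.43) and XII (-0.80) and the right arm of VIII (0.53) had changed, and the 3 centromere windows read -0.07, -0.10 and 0.00. In strain 81 the right arm of XV was at 0.62 and its centromere at -0.05. In strain 84 the right arm of IV was at -0.70 and its centromere at 0.10. The right arm of XVI carried a gain from position 776245 in the same strain, 220 kb from a centromere window that read 0.01. Strains 101 and 107, with the breaks given above, supplied the rest.

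Read by strain, changed stretches came in combinations that differed in centromere content. In strain 101, the gained stretch of IV and the lost stretch of XIII both lacked the centromere. In strain 106, the gained stretch of IV contained the centromere and the raised stretch of XIV lacked it. In strain 81, the gained stretch of V contained the centromere and that of XV lacked it. In strain 117, the lost stretch of X contained the centromere and the lost stretch of XV, from position 980207, lacked it, with window XV at 0.04. In strain 107, the lost stretch of XIV and a raised stretch of XV from 15270 to 47365, at 0.44 and 0.48 at its edges, both lacked the centromere. Which of these ends are joined to each other cannot be read from copy number.

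**Figure D3:**
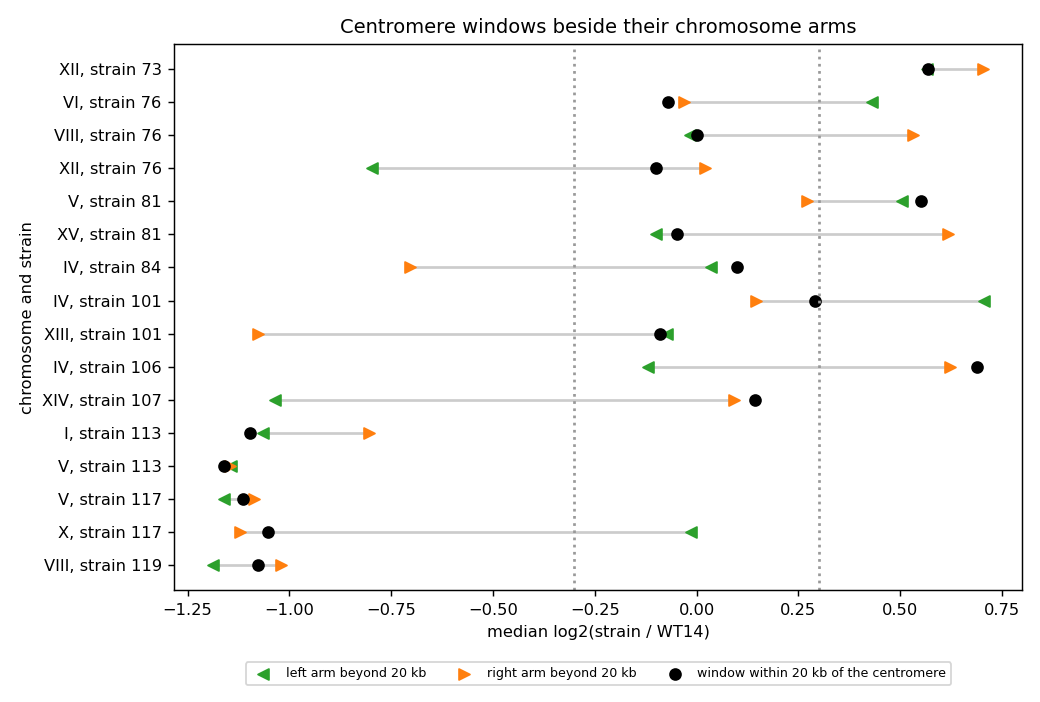
Median log2 ratio (x axis) of the left arm beyond 20 kb, the right arm beyond 20 kb and the centromere window, for each chromosome and strain (y axis) with an arm past 0.4. Dotted lines mark 0.3 in either direction. On chromosomes such as XIV of strain 107, with -1.04 on the left arm and 0.14 at the centromere, the centromere stays with the unchanged arm.

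Single probes in the lost window of chromosome V did not all read alike in strains 113 and 117. Of 199 probes in the window, 14 lay more than 0.4 from their strain's own window median in at least 1 of these strains. For 12 of the 14 the deviation had opposite signs, below in 113 and above in 117 for 10 probes and the reverse for 2. The 14 were picked by these same deviations, and the share of opposite signs over all 199 probes was not counted. Some deviations were small, as at 137810 to 137869, with -0.40 in strain 113 and 0.07 in strain 117. The deviations were not corrected for the probe's own level, which on WT14 reached 0.35 among the 14. The probe at positions 156464 to 156523 read -5.47 in strain 113, where its Cy5 signal was not well above background (at least 8.64-fold lower), and -0.36 in strain 117. The probe at 159529 to 159588 read -2.90 and -0.30. On the WT14 array these probes read 0.02 and -0.02. Over the 199 probes Pearson's r between the strains was -0.38 and Spearman's rho was -0.05. Both values are descriptions across probes that share 2 arrays, and the first rests on the few extreme probes. WT14 carries 1 homologue from each parent, and whether the strains lost different homologues was not tested.

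In the lost window of chromosome VIII in strain 119, 22 of 185 probes read below -1.5, against 17 of 199 and 3 of 199 in the lost windows of chromosome V in strains 113 and 117, 2 of 189 on chromosome I and 1 of 205 on chromosome X. A stretch of 10 consecutive probes from 92859 to 94910, 10.7 kb left of the centromere, was far lower in strain 119, with a median of -3.38 when Cy5 signals not well above background were raised to the lowest signal that was. On the other 13 arrays the median of this stretch lay between -0.13 and -0.03. The stretch is singled out here by its low values in strain 119, so this difference is a description and not a test. Its edges do not separate low probes from the rest. Inside it, probes read -1.11 and -1.27, near the window's median, and a probe to the left of it read -4.17. In 5 of the 10 probes the Cy5 signal was not well above background, where the ratio is only a bound, at least 10.4-fold to 30.5-fold lower. The other 5 read -3.39 to -1.11. Without the stretch the window's median was -1.07. With WT14 in both channels, its own array cannot show whether its homologues differ at these probes.

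**Figure D4:**
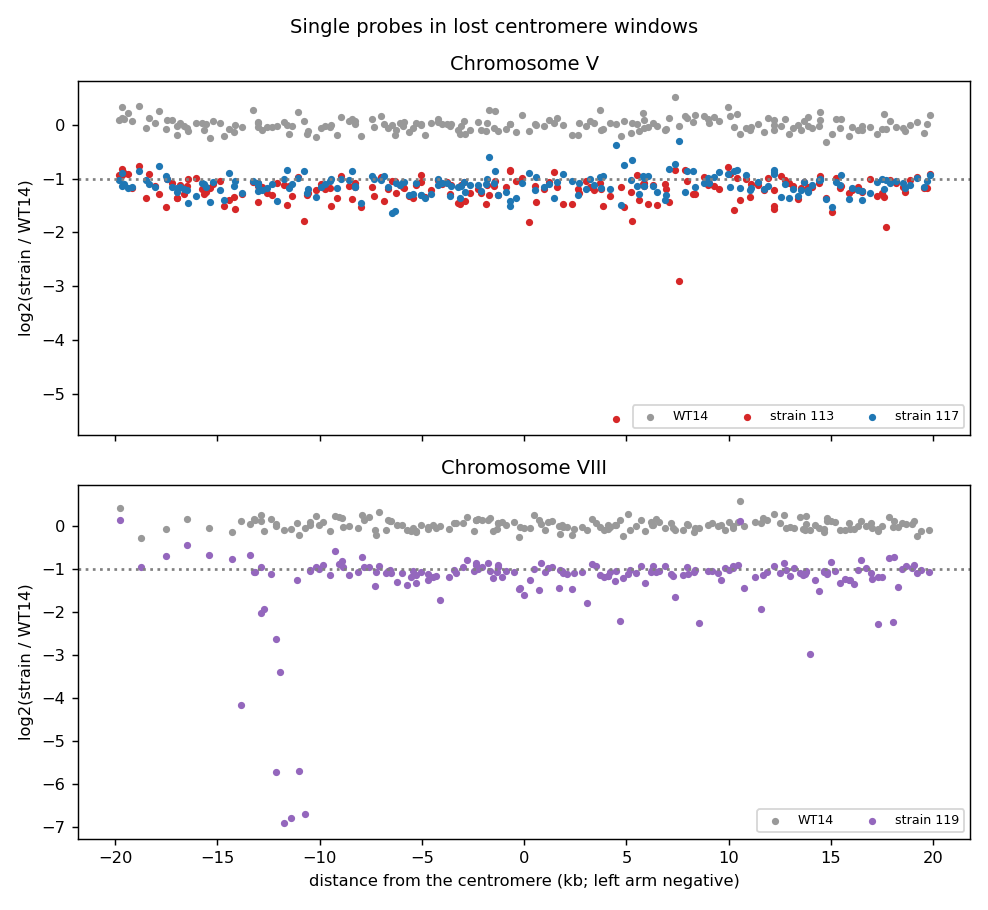
Log2 ratio of single probes (y axis) by distance from the centromere in kb (x axis) in the lost windows of chromosome V, strains 113 and 117, and chromosome VIII, strain 119, with WT14 in grey. The dotted line marks -1. Most probes lie along it, strain 113 has probes down to -5.47 where strain 117 reads -0.36, and strain 119 has a stretch whose median was -3.38 or lower. Points of probes not well above background, among them that at -5.47, are bounds.

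Apart from the largest gains and losses, the windows were not flat in all strains. Windows of the 4 shortest chromosomes (I, III, VI and IX) were compared with those of the other chromosomes, leaving out windows past 0.45. The called losses of strain 106 on chromosomes IX and XIV were therefore kept. In WT14 the short chromosomes read 0.02 higher. In all 13 TAQed strains they read lower, by a median of 0.09 on the log2 scale, with the smallest difference in strain 76 (-0.01) and the largest in strain 106 (-0.31), strain 119 (-0.28) and strain 117 (-0.21). Windows III and IX were below WT14 in 13 of 13 strains, with ranges of -0.27 to -0.03 and -0.30 to -0.06, and window IV was above it in 12 of 13. Beyond the windows, the rest of the short chromosomes differed from the windows by -0.04 to 0.05 on the log2 scale, and read higher than the windows in 11 of 13 strains. In strain 106 the rest and the windows read -0.28 and -0.28, in strain 97 they read -0.01 and -0.05, and in strain 76 the rest read 0.01 and the windows -0.04. Across the windows kept, 14 to 16 per array, Spearman's rho with chromosome length was between 0.14 and 0.98 in the TAQed strains and -0.67 in WT14. These are descriptions over windows that share 1 array. By slide, the difference had a median of -0.08 over the 5 TAQed strains on the slide that also held WT14 and -0.13 over the 8 on the other slide. What this difference comes from was not tested.

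**Figure D5:**
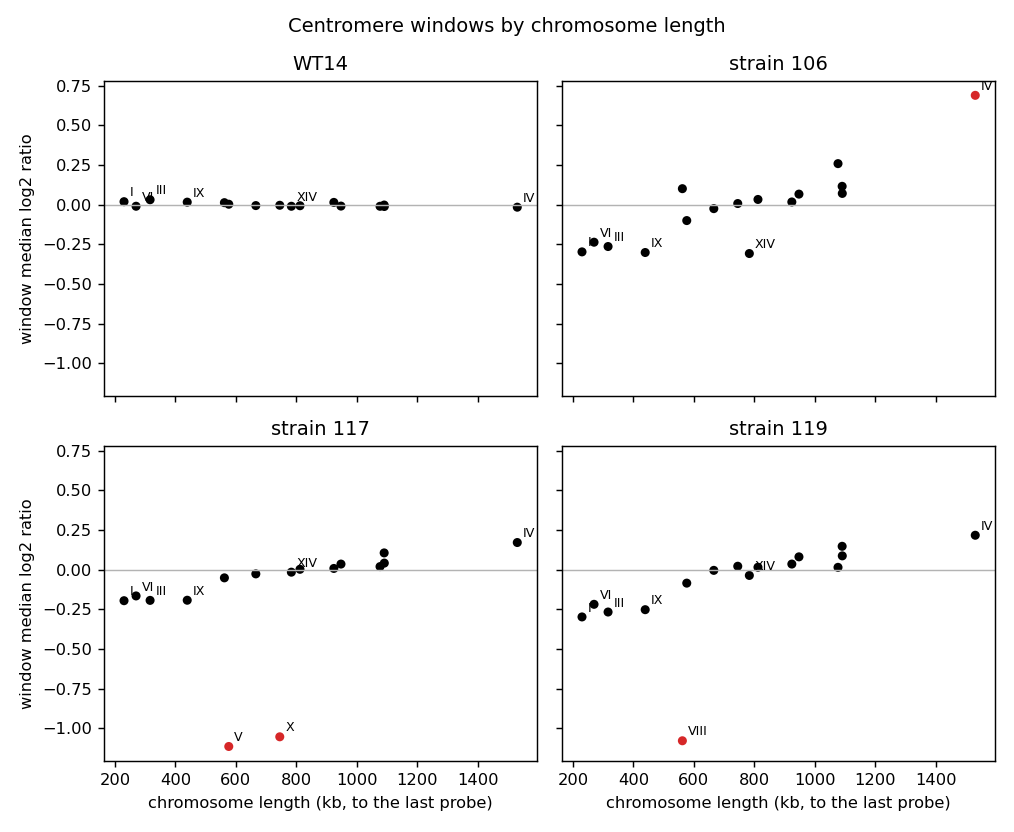
Window median log2 ratio (y axis) against chromosome length in kb, to the last probe (x axis), for WT14 and strains 106, 117 and 119. Red points are windows past 0.45 in size. In WT14 all 16 windows lie between -0.02 and 0.03, and in the TAQed strains shown the median of the 4 shortest chromosomes lies below that of the longer ones by 0.21 to 0.31, although window XIV of strain 106 (-0.31) is lower than all 4.

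Whether centromere windows as a group differed from the rest of the genome was tested within arrays. The median of the 16 centromere windows minus the median of the 271 other windows was -0.025 ± 0.021 (SD, n = 13 TAQed strains), below 0 in 10 of 13 (exact sign-change permutation test, two-sided, p = 0.00195), and -0.004 on the WT14 array. The test treats the 13 values as independent, although all arrays shared the WT14 reference and strains shared slides. The size is small beside the step of 1 copy, and the comparison counts short and long chromosomes alike on the centromere side only. When each centromere window was set against the other windows of its own chromosome, the difference was -0.013 ± 0.023 (exact permutation p = 0.0566), below 0 in 8 of 13. By slide, the first difference was -0.041 ± 0.013 in the 5 TAQed strains of 1 slide, all below 0, and -0.015 ± 0.018 in the 8 of the other, 5 of them below 0.

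A change shared by the strains was tested with limma on the mean ratio of each 40 kb window, 13 TAQed arrays against 1 WT14 array, with Benjamini-Hochberg adjustment over all 287 windows. No centromere window passed an adjusted p of 0.05, and 0.0% of all windows did. Unadjusted p values under 0.05 were found for 6 windows, of which 1 was a centromere window, IX, with a difference of -0.17 (SE 0.075, limma adjusted p = 0.969). The single control array leaves the spread of WT14 unmeasured, and in this fit it is taken to vary like the TAQed arrays, so the lack of calls says little about shared changes.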

How the data were processed

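Genomic DNA was hybridized on custom Agilent arrays, 1 per strain, labeled Cy5 (strain) and Cy3 (WT14). The authors deposited Feature Extraction 11.0.1.1 spot tables, whose processed intensity per channel is background-subtracted and dye-normalized, and a matrix of log10 ratios, used here as an alternative. Coordinates follow sacCer2. The authors' log10 ratio was not used for the main values: from the deposited intensity, log2 ratios were recomputed without loess, control spots, outlier flags and 23 probes spanning over 100 bases were left out, probes were averaged by name, and arrays were centered on their median. The number of arrays limits the precision.

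Segmentation used optimal partitioning (penalty 10, at least 10 probes) and boundaries within 5 kb were merged. limma 3.58.1, Python 3.11.15 and scipy 1.17.1 were used, and both the segmentation and the limma fit were checked on simulated data. Normexp (offset 50) was run on median signals in place of the planned mean signals. All called windows and breaks within 30 kb were named. Genes next to those centromeres were also named, except at centromere IX and on the right arm of centromere XII. Genes come from RefSeq locus tags, 5637 of which carry an arm and number, and no RefSeq coordinate was used because the assembly is another. TRP1, planned as a named gene, was not placed on this build. The windows, thresholds and tests were chosen with earlier results of these data known.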

Additional observations from a re-analysis of the deposited data

How the results depend on the processing

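The count of 10 called centromere windows was 20 at a threshold of 0.2, and 8 to 11 under the other alternatives. Of the 8 windows of size 0.55 or more, each recomputed under 10 alternatives, 79 of 80 values stayed past the threshold in the same direction. The exception was chromosome V of strain 81 under normexp (0.12), where the offset exceeded the median signals of the array and pulled the ratio toward 0. The smaller losses of strain 106 ended under several alternatives, among them a correction for distance from the chromosome end (-0.13 on chromosome IX and -0.25 on chromosome XIV), an alternative chosen after seeing the data. Without strain 106, 7 windows were called, and without strain 81, 9. The count of 4 breaks was the same under all 10 alternatives run. The centromere difference was -0.013 (exact permutation p = 0.0566) when taken within each chromosome, chosen after seeing the data, which compares each window with fewer others. Against other windows at least 40 kb from a chromosome end the centromere difference was -0.0361. With the correction for distance from the chromosome end, also chosen after seeing the data, it was -0.0407. On chromosomes with no window past the threshold it was -0.0188. Without each strain in turn it ran from -0.0277 to -0.0224. limma called 0 windows under each alternative, with 7, 10 and 67 unadjusted p values under 0.05 with slide as a covariate, without strain 81 and in 2 kb windows. No pairing of TAQed arrays with control arrays was possible because each strain had 1 array. Only the centromere difference was paired, within arrays. Signal over background limits the array of strain 81 most.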
